A study of Mus musculus with 4 samples.

Results

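The 10 genes described here make, control and break down the polyamines putrescine, spermidine and spermine: Odc1, Amd1, Srm and Sms for synthesis, Azin1, Oaz1 and Oaz2 for control, and Sat1, Smox and Paox for breakdown. They were chosen by name, as the enzymes and regulators of this pathway, and with earlier results of these data known. All 10 were found among the 37310 genes of the GENCODE M1 annotation of the mouse genome (mm9). The peak lists set beside them come from E14 mouse embryonic stem cells (ESCs), a widely used cell line. In the Bio-Myc ChIP-Seq, Myc carrying an N-terminal Biotag was expressed from the EF1α promoter in 1 stable clone of E14 cells and pulled down with streptavidin beads, and the clone kept its endogenous Myc. By the methods of the study, the tagged Myc was introduced into ESCs that carried the biotin ligase BirA. In the Max ChIP-Seq, an anti-Max antibody was used on parental wild type E14 cells. A mock streptavidin ChIP and an IgG ChIP of parental cells served as the controls of the peak calling, and the text of the study and the sample labels differ on whether the mock cells expressed the biotin ligase BirA. Each ChIP is 1 library, so the values below carry no error between cultures, no test between genes or lists was run, and the number of reads behind the lists is unknown.

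Polyamines are small positively charged molecules that bind nucleic acids and are needed by growing cells. Ornithine decarboxylase makes putrescine from ornithine, and the aminopropyl groups that turn putrescine into spermidine and then into spermine come from S-adenosylmethionine once it has been decarboxylated. The pathway is held in check by antizymes, which bind ornithine decarboxylase and send it to the proteasome. Odc1 is a textbook target of Myc, which binds DNA as a dimer with Max and prefers the E-Box, the palindrome CACGTG.

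A Bio-Myc peak lay within 1 kb of an annotated transcription start site (TSS) at 4 of the 10 genes, and a Max peak lay there at the same 4: Odc1, Srm, Amd1 and Azin1. Among the 22380 protein-coding genes of the annotation, 14.6% had a Bio-Myc peak in this window, 34.8% a Max peak and 12.7% a peak of each. The count for Bio-Myc was therefore above its background share, whereas the count for Max, 4 of 10, was close to that of Max. Since the genes were chosen with earlier results of these data known, this comparison is a description and was not tested. By role, peaks of both lists lay at 3 of the 4 synthesis genes, at 1 of the 3 control genes and at none of the 3 breakdown genes. Widening the window to 5 kb added no gene in either list, and the background shares were not recomputed for that window. For every one of these peaks, the nearest annotated TSS belonged to the polyamine gene itself. At each of the 4 genes the Bio-Myc peak overlapped a Max peak, and the score of a peak, which is 10 times the negative log10 of its p-value and starts at 80, ran from 128 at Amd1 to 925 at Srm for Bio-Myc and from 98.8 at Azin1 to 1362 at Srm for Max.

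**Figure D1:**
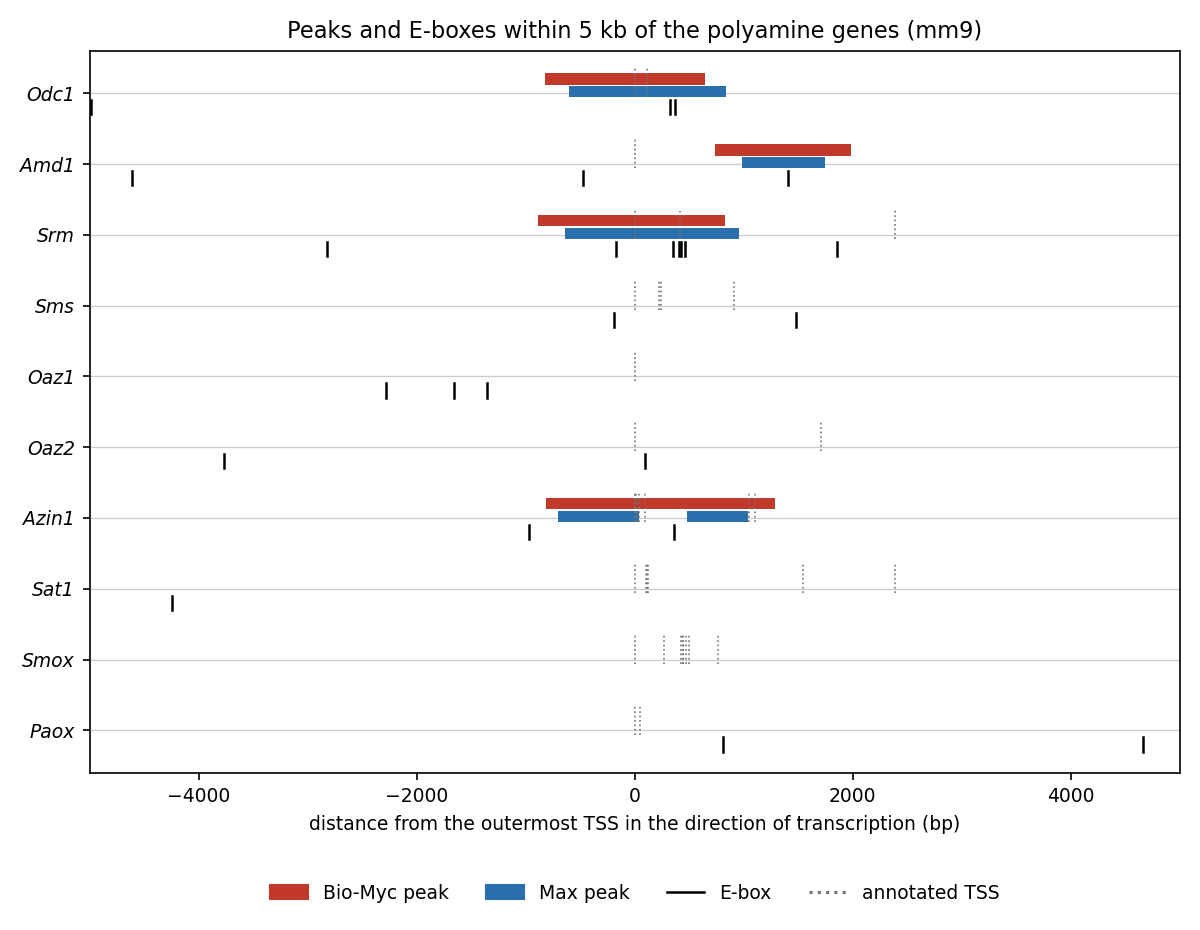
Bio-Myc peaks (red bars), Max peaks (blue bars), E-Boxes (black ticks) and annotated TSSs (dotted lines) within 5 kb of the outermost TSS of each of the 10 genes, with distance in bp along the direction of transcription. Peaks appear at Odc1, Amd1, Srm and Azin1, and the other 6 rows hold E-Boxes or TSSs and no peak.

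Odc1 (ENSMUSG00000011179.6, chr12:17551679-17558308, plus strand) encodes ornithine decarboxylase, the rate-limiting enzyme of the pathway. Its Bio-Myc peak (chr12:17550855-17552320, 1466 bp) had a score of 258, above 82.1% of the 2900 Bio-Myc peaks at coding promoters. The Max peak (chr12:17551077-17552518, 1442 bp) had a score of 556, above 91.9% of the 7569 Max peaks at coding promoters. The peaks shared 1244 bp and each covered both annotated TSSs, with the centre 92 bp upstream of the outer TSS for Bio-Myc and 118 bp downstream for Max. Each held the same pair of E-Boxes, which lie in an intron 325 and 365 bp downstream of the outer TSS. The pair is shown because the comparison with other promoters turns on its spacing, with the E-Boxes in capitals and 12 bases on either side, 5′ to 3′ on the plus strand (chr12:17551992-17552061):
Odc1 pair: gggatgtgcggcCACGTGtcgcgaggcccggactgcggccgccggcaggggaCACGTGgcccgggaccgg

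The starts of the Odc1 E-Boxes were 40 bp apart, with 34 bases between them. A peak with at least 2 E-Boxes was uncommon. So many were held by 417 of the 2900 Bio-Myc peaks at coding promoters (14.4%) and 643 of the 7569 Max peaks (8.5%). These shares were not matched for width, and a wider peak holds more sequence in which CACGTG can occur. The median width at coding promoters was 1054 bp in the Bio-Myc list and 860 bp in the Max list. Both Odc1 peaks, of 1466 and 1442 bp, were wider. Over the whole Bio-Myc list, 567 peaks had at least 2 E-Boxes, and in 114 of them (20.1%) a neighbouring pair was spaced by 40 bp or less. The exact spacing of 40 bp occurred under 4 Bio-Myc peaks and 6 Max peaks. The 4 Bio-Myc peaks lay at the promoters of Xpot (score 657), Odc1 (258), Avpi1 (221) and Tmem192 (89.2), so that Odc1 was second by score. Without asking for a peak, a pair at this spacing was found within 1 kb of a TSS of 7 coding genes. Of these, 5 carried a peak of Bio-Myc and 6 one of Max, and at 4 the pair itself was under the Bio-Myc peak. For coding genes with CACGTG in this window, whatever its number or spacing, the shares were 23.9% for Bio-Myc and 50.5% for Max. Whether this spacing goes with peaks more often than other E-Boxes do was not tested. Neither E-Box was at the middle of its peak: for Bio-Myc they lay 419 and 459 bp off the midpoint, and for Max 209 and 249 bp off it.

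**Figure D2:**
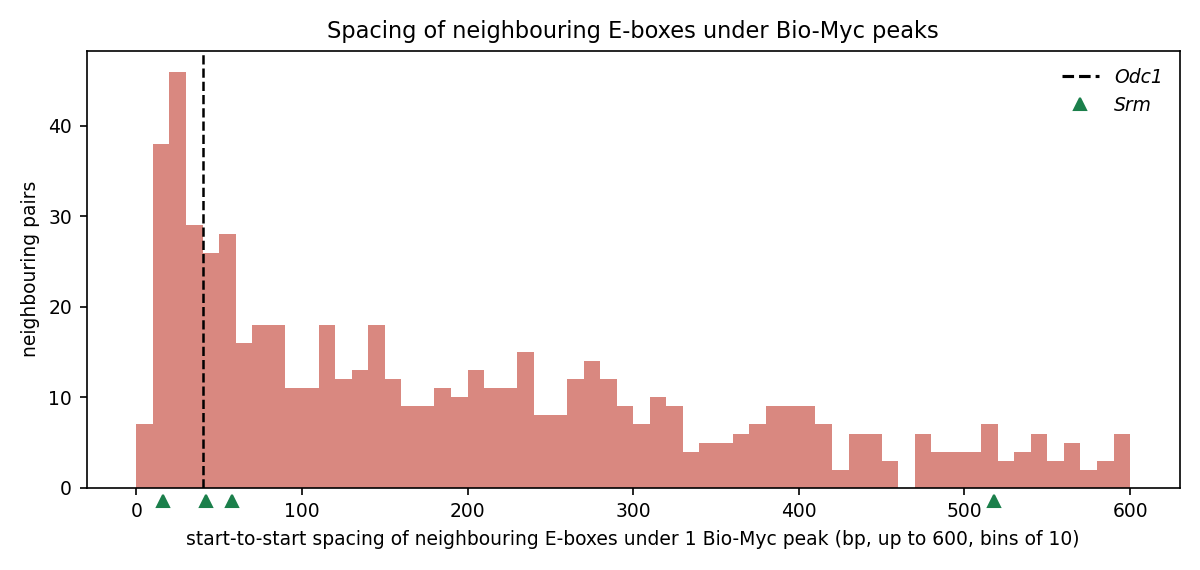
Number of neighbouring E-Box pairs under the Bio-Myc peaks of the whole list (vertical axis) by the distance between their starts in bp (horizontal axis, bins of 10 bp up to 600 bp). The dashed line marks the Odc1 pair at 40 bp and the triangles the pairs of Srm at 16, 42, 58 and 518 bp, with the Odc1 pair and 3 of the 4 Srm pairs among the short spacings that are most frequent.

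Srm (ENSMUSG00000006442.10, chr4:147965612-147969102, plus strand) encodes spermidine synthase, which turns putrescine into spermidine, and had the highest scores of the 10 genes in both lists. Its Bio-Myc peak (chr4:147964725-147966440, 1716 bp) had a score of 925, the rank of 22 among the 3962 Bio-Myc peaks. The Max peak (chr4:147964971-147966566, 1596 bp) had a score of 1362, the rank of 70 among the 11570 Max peaks. Both peaks covered the outer TSS, with centres 30 bp upstream of it for Bio-Myc and 156 bp downstream for Max, and they shared 1470 bp.

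The same 5 E-Boxes lay under both Srm peaks, 1 of them 167 bp upstream of the outer TSS and 4 between 346 and 462 bp downstream. Only 5 of the 2900 Bio-Myc peaks at coding promoters (0.172%) and 9 of the 7569 Max peaks (0.119%) held 5 or more. Here too width was not matched. The Srm peaks were 1716 bp (Bio-Myc) and 1596 bp (Max) wide, against medians at coding promoters of 1054 and 860 bp. The part of peak width in the E-Box count of Srm was not tested. The 4 downstream E-Boxes sit within 122 bp of the intron of the coding transcript, where a noncoding transcript of the gene starts between the second and the third of them. Their starts are 58, 16 and 42 bp apart, and of these only 42 bp is close to the 40 bp of the Odc1 pair. The cluster (chr4:147965946-147966091) and the upstream E-Box (chr4:147965428-147965457) are given on the plus strand, to be read against the Odc1 pair, with E-Boxes in capitals:
Srm cluster: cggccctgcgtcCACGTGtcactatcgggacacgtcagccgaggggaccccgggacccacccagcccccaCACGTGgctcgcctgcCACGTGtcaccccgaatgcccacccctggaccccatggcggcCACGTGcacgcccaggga
Srm upstream: agggcctctcccCACGTGgcccggcagccg

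A further CACGTG of Srm, in a coding exon 1857 bp from the outer TSS, was outside both peaks, 1029 bp beyond that of Bio-Myc and 903 bp beyond that of Max. As at Odc1, the clustered E-Boxes were off the midpoint of the Bio-Myc peak, by 378 to 494 bp, while the upstream E-Box was 140 bp from it.

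**Figure D3:**
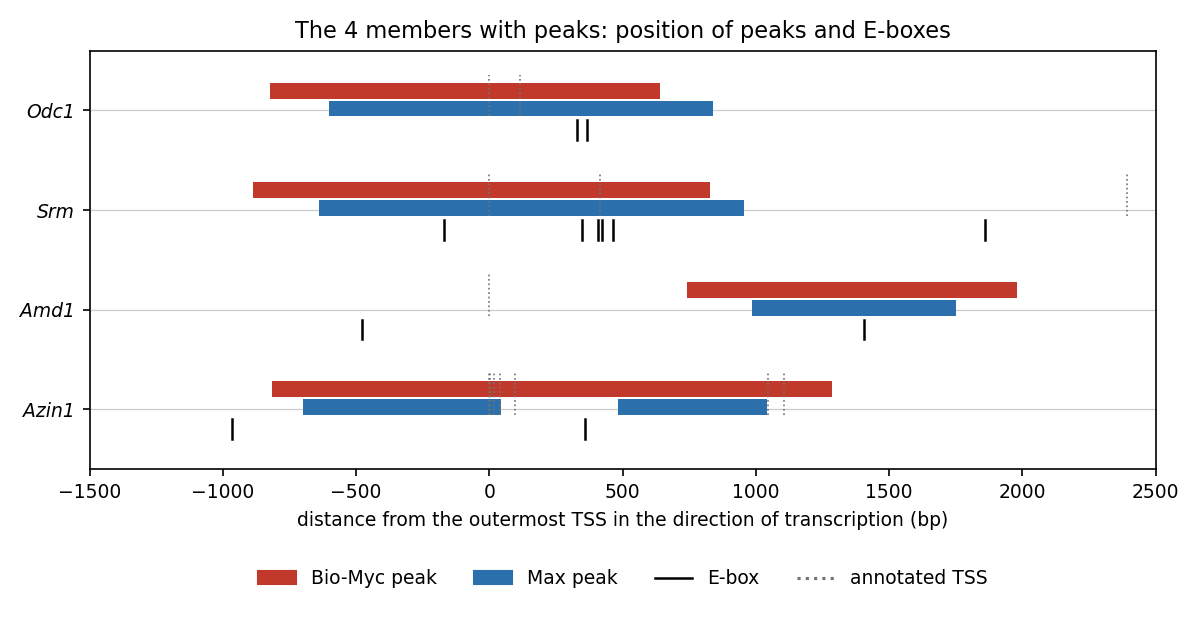
Peaks, E-Boxes and annotated TSSs at the 4 genes with peaks by distance in bp from the outermost TSS, with symbols as in the plot of all 10 genes. The peaks of Odc1 and Srm, the Bio-Myc peak of Azin1 and 1 of its 2 Max peaks lie over a TSS, those of Amd1 begin 740 and 985 bp downstream of it, and the Azin1 E-Box at 355 bp falls between 2 Max peaks.

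Amd1 (ENSMUSG00000075232.3, chr10:40007265-40021992, minus strand) encodes S-adenosylmethionine decarboxylase, which supplies the aminopropyl groups for spermidine and spermine. Its peaks differed from those of Odc1 and Srm in position, since neither reached the annotated TSS. The Bio-Myc peak (chr10:40020011-40021252, score 128) began 740 bp downstream of the TSS, and the Max peak (chr10:40020242-40021007, score 289) began 985 bp downstream and lay wholly inside it. Of the 2900 Bio-Myc peaks at coding promoters, 88.1% covered a coding gene's TSS and 52 (1.79%) were as far from one as that of Amd1. The Bio-Myc score was above 44.3% of these peaks and the Max score above 73.0% of those of Max, so by score the Amd1 peaks were ordinary. Both Amd1 calls end when the window is narrowed to 500 bp, and the Bio-Myc call also ends at a p-value limit of 1e-15.

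The centres of the Amd1 peaks were 1360 and 1368 bp downstream of the TSS, and 1 E-Box, in an intron 1404 bp from the TSS, lay 46 and 39 bp from them. This was the E-Box nearest to a peak centre among the 4 genes. Another CACGTG, 475 bp upstream of the Amd1 TSS, was not under a peak and was 1215 bp from the Bio-Myc peak. Both are shown on the minus strand, the strand of the gene, to set the E-Box under the peaks (chr10:40020571-40020600) beside the one outside them (chr10:40022455-40022484):
Amd1 intron: aatcccagcggcCACGTGctgccgagactt
Amd1 upstream: gtctcgtggaaaCACGTGaaaaaatggttt

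The region around the Amd1 TSS is partly repeated in the genome, and the authors kept reads with unique hits only. Of the 32-base words within 250 bp of this TSS, 56.4% occur once in mm9, the lowest share among the 10 genes, against 100% under the Bio-Myc peak of Amd1. The part of this in the place of the peaks was not tested, and the read length is not given in the sources used here.

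Sms (ENSMUSG00000071708.5, chrX:153881787-153930219, minus strand) encodes spermine synthase and was the synthesis gene without a peak. Its closest peaks were 105 kb upstream in the Bio-Myc list and 2125 kb downstream in the Max list. CACGTG occurred at Sms too, 191 bp upstream of the outer TSS and in an intron 562 bp from the nearest of its 5 TSSs. The upstream E-Box is shown, on the minus strand, as a promoter E-Box with no peak over it (chrX:153930398-153930427):
Sms upstream: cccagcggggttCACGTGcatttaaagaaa

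Sms and Sat1 are the 2 genes of the group on chromosome X, where peaks of both lists were scarce. In the 1-kb window, 5.58% of the 932 coding genes of chromosome X carried a peak of Bio-Myc, 4.4% one of Max and 2.04% both, against 15%, 36.1% and 13.1% of the 21418 autosomal coding genes. The part of this in the absence of peaks at Sms and Sat1 was not tested.

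Azin1 (ENSMUSG00000037458.8, chr15:38417185-38449021, minus strand) encodes antizyme inhibitor, which resembles ornithine decarboxylase, binds antizyme and thereby spares the enzyme from degradation. It was the control gene with peaks, and the gene at which the lists differed most. The Bio-Myc peak (chr15:38447737-38449837) was the widest of the 4, with 2101 bp, covered 7 of the 8 annotated TSSs and had a score of 164, above 60.8% of Bio-Myc peaks at coding promoters. In the Max list the same stretch held 2 separate peaks, chr15:38447980-38448538 (559 bp, score 98.8) and chr15:38448979-38449722 (744 bp, score 106). These were above 13.7% and 18.0% of the Max peaks at coding promoters, and both fall out at a p-value limit of 1e-11. Of the Bio-Myc peaks at coding promoters, 92 (3.17%) overlapped at least 2 Max peaks.

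The Azin1 E-Box under the Bio-Myc peak lay 355 bp downstream of the outer TSS, in the 5′ untranslated region of a coding transcript, and 124 bp off the midpoint of this peak. It was in the gap between the Max peaks, 123 bp from the nearer of them, and was the only E-Box of the 9 under the Bio-Myc peaks of these genes that was not also under a Max peak. Over all Bio-Myc peaks at coding promoters, 86.2% of 1995 E-Boxes were under a Max peak as well. It is given on the minus strand (chr15:38448649-38448678) for comparison with the E-Boxes shown above:
Azin1 5prime: gggccgttatctCACGTGagtaccggactt

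A second CACGTG of Azin1, 965 bp upstream of the outer TSS, lay 149 bp outside the Bio-Myc peak. The next base outside the E-Box was read as well. Of the 9 E-Boxes under the Bio-Myc peaks, 8 had a C directly before or a G directly after the CACGTG, and Azin1 was the exception. These 8 include the 5 of the Srm peak and the 2 of the Odc1 peak. The same held for 59.5% of the 1995 E-Boxes under Bio-Myc peaks at coding promoters, so an E-Box without such a base was common. Among the 9 CACGTG within 1 kb of a TSS of these genes and outside the peaks, 6 had such a base, so the counts inside and outside were close.

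Scores of a Max and a Bio-Myc peak come from separate libraries, and their ratio was read only against the other genes. For 2410 pairs of overlapping peaks at coding promoters the median ratio of the Max score to the Bio-Myc score was 1.68, with quartiles of 1.11 and 2.64. The ratios of Odc1 (2.15), Amd1 (2.27) and Srm (1.47) lay between these quartiles. That of Azin1, taken with its stronger Max peak, was 0.646, and 5.48% of the pairs had a lower one.

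**Figure D4:**
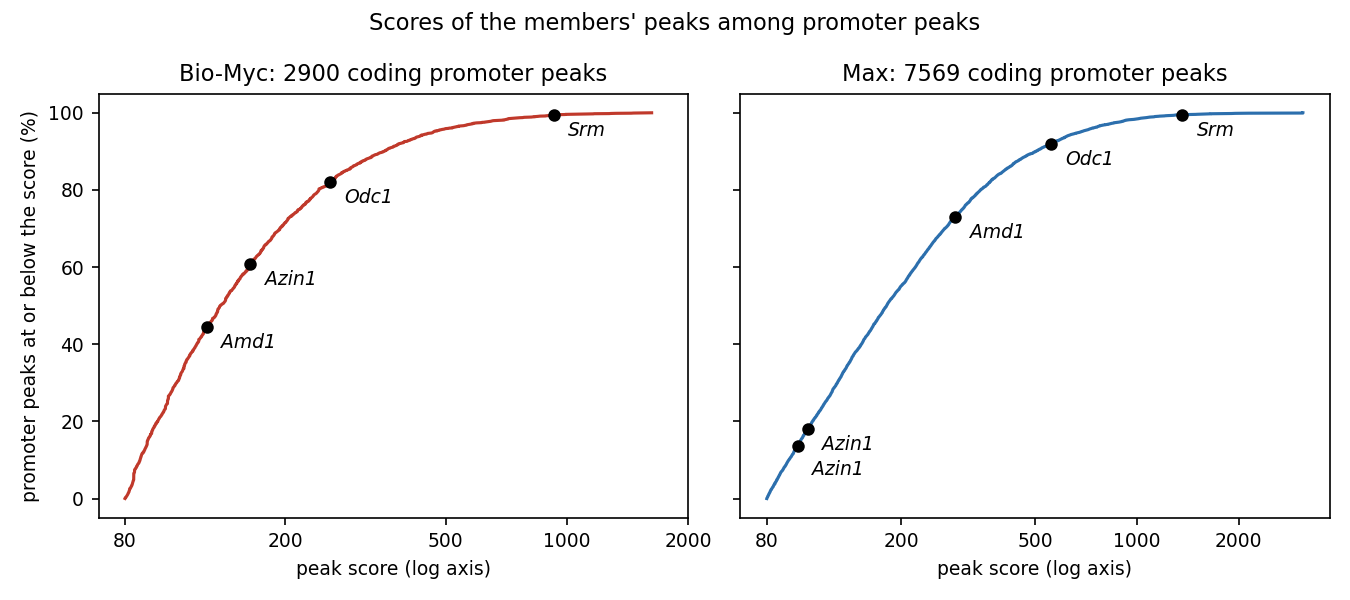
Share in percent of Bio-Myc (left) and Max (right) peaks at coding promoters with a score at or below the value on the horizontal log axis, with the peaks of the 4 genes as black points. Srm is near the top of both curves, above 99.4% and 99.5% of the peaks, and Azin1 falls from above 60.8% of the Bio-Myc peaks to above 13.7% and 18.0% of the Max peaks.

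Oaz1 and Oaz2, the genes of the antizymes that Azin1 counters, had no peak within 5 kb of a TSS in either list. Oaz1 (ENSMUSG00000035242.8, chr10:80289401-80292035) was the gene without a peak that had one closest by, a Max peak with a score of 168 at 7.73 kb downstream of its TSS, while Bio-Myc came no closer than 18.6 kb, on the upstream side. No CACGTG was present within 1 kb of its TSS. At Oaz1, 63.6% of the 32-base words within 250 bp of the TSS occur once in mm9, the lowest share among the genes without a peak. The highest of these was 100%, at Sms and Paox. Among the genes with peaks the share ran from 56.4% at Amd1 to 100% at Azin1, so the ranges overlapped. The part of repeated sequence in the absence of a peak at Oaz1 was not tested. At Oaz2 (ENSMUSG00000040652.8, chr9:65515808-65538107), which this annotation does not class as protein-coding, the nearest peaks were 80.4 kb (Bio-Myc) and 79.7 kb (Max) upstream, and 1 CACGTG lay 89 bp downstream of the outermost TSS.

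Both lists were empty within 5 kb of every TSS of the breakdown genes. Sat1 (ENSMUSG00000025283.9, chrX:151647675-151650992) encodes the acetyltransferase that marks spermidine and spermine for export or oxidation, and its nearest peaks were 2384 kb (Bio-Myc) and 122 kb (Max) upstream. Smox (ENSMUSG00000027333.9, chr2:131317232-131351658), which encodes spermine oxidase, had its nearest peaks 331 kb (Bio-Myc) and 281 kb (Max) upstream. Paox (ENSMUSG00000025464.8, chr7:147311556-147320233), which encodes the oxidase of acetylated polyamines, had peaks of both lists 11.6 kb (Bio-Myc, score 270) and 11.5 kb (Max, score 388) downstream. The centres of these peaks were 5 and 16 bp from a TSS of another gene, Mtg1. CACGTG was present within 1 kb of a TSS at Smox, in a coding exon and in an intron near internal TSSs, and at Paox, in a coding exon 755 bp from the nearest TSS, and absent at Sat1.

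An E-Box near a TSS was present in genes of both kinds, with and without peaks. CACGTG occurred within 1 kb of a TSS at all 4 genes with peaks and at 4 of the 6 without: Sms, Oaz2, Smox and Paox. At Amd1 the one counted was 475 bp upstream and not under a peak. The E-Box under its peaks, 1404 bp from the TSS, was outside the 1-kb window. Among all coding genes, 39.0% had CACGTG in this window, and peaks were present there at 23.9% of these genes for Bio-Myc and 50.5% for Max, against 8.69% and 24.8% of the genes without it. The Oaz2 and Smox E-Boxes lay beside starts of noncoding transcripts, at Oaz2 8.55 kb from the start that RefSeq gives and at Smox 29285 and 29715 bp from the outermost TSS. Counting only starts of coding transcripts and RefSeq starts, a choice made after these positions were seen, CACGTG was present at the 4 genes with peaks and at 2 of the 6 without, Sms and Paox. Over all coding genes, 33.7% had CACGTG within 1 kb of a start of a coding transcript, and peaks were there at 24.5% of them for Bio-Myc and 50.3% for Max. The windows differ in length, since the 10 genes have between 1 (Amd1, Oaz1) and 11 (Smox) annotated TSSs.

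The base composition at the TSS overlapped between the genes with and without peaks as well. Within 500 bp of the outer TSS the GC content was 72.2% at Odc1, 67.4% at Srm, 66.2% at Azin1 and 54.3% at Amd1, and from 44.7% (Oaz2) to 62.8% (Oaz1) at the other 6. The observed over expected CpG ratio was between 0.819 and 0.944 at the 4 genes with peaks. Oaz1 (0.943) and Sms (0.826) fell within that range, and Sat1 (0.588), Smox (0.626), Paox (0.537) and Oaz2 (0.261) below it. For Oaz2, Smox and Sms these values depend on the start. At the RefSeq start of Oaz2 the GC content was 60.8% and the ratio 0.567, and at that of Smox they were 67.0% and 0.84. At the RefSeq start of Sms that lies 0.919 kb from its outer TSS they were 66.6% and 0.944. With these starts, both values of Smox and of Sms were within the range of the genes with peaks.

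The reactions that feed the pathway and use its products were read from a list of 27 further genes, of which 26 were found in the annotation. Bio-Myc peaks lay within 1 kb of a TSS at 7 of the 26 and Max peaks at 14, including those 7, against the background shares of 14.6% and 34.8%. In the methionine cycle and salvage, which provides S-adenosylmethionine and recycles the methylthioadenosine left by spermidine and spermine synthesis, 4 of 9 genes had both peaks and 3 a Max peak alone. Over all coding genes, 12.7% had a peak of each list, and the difference was not tested. Mat2a, which encodes the catalytic subunit that makes S-adenosylmethionine, had scores of 102 and 135 at 2 Bio-Myc peaks and of 981 at its Max peak, the rank of 180 in that list. Mat2b, its regulatory subunit (Bio-Myc 100, Max 262 and 177), Mtap, which cleaves methylthioadenosine (113 and 184), and Ahcy, which hydrolyses S-adenosylhomocysteine (82.9 and 118), had Bio-Myc scores of at most 113. Of the later salvage enzymes, 3 had Max peaks alone, with scores of 831 at Enoph1, whose peak is shared with the promoter of Hnrpdl, 382 at Mri1 and 107 at Adi1. Apip, another salvage enzyme, and Mat1a, the paralogue of Mat2a best known from liver, had no peak in either list.

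Spermidine is also the donor for hypusine, an amino acid found in the translation factor eIF5A, and Max peaks lay at all 4 genes of this branch. The Max share over all coding genes was 34.8%, and a set of 4 genes was not tested against it. Eif5a, the gene of the factor itself, scored 339 for Bio-Myc (chr11:69733081-69736360) and 1517 for Max (chr11:69733326-69735752), the rank of 52 in the Max list and above that of Srm, with 3 E-Boxes under each. Dhps, which encodes the first of the modifying enzymes, had scores of 210 and 864 with no E-Box under either peak. Dohh, the second enzyme, had Max peaks of 174 and 86.5, and Eif5a2, the paralogue of Eif5a, a Max peak of 696, and neither had a Bio-Myc peak.

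In the transport set, Slc3a2, the heavy chain of several amino acid transporters, scored 584 and 121 at its 2 Bio-Myc peaks and 176 and 460 at the overlapping Max peaks. Atp13a3, a transporter of polyamines, had Max peaks of 192 and 146 alone, and Atp13a2 had none. Of the 5 genes of arginine and ornithine metabolism, Oat, which converts ornithine to another product, had a Max peak (211) and no gene had a Bio-Myc peak. The 5 paralogues of the polyamine genes themselves (Oaz3, Adc, Sat2, Satl1 and Amd2) had no peak in either list.

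**Figure D5:**
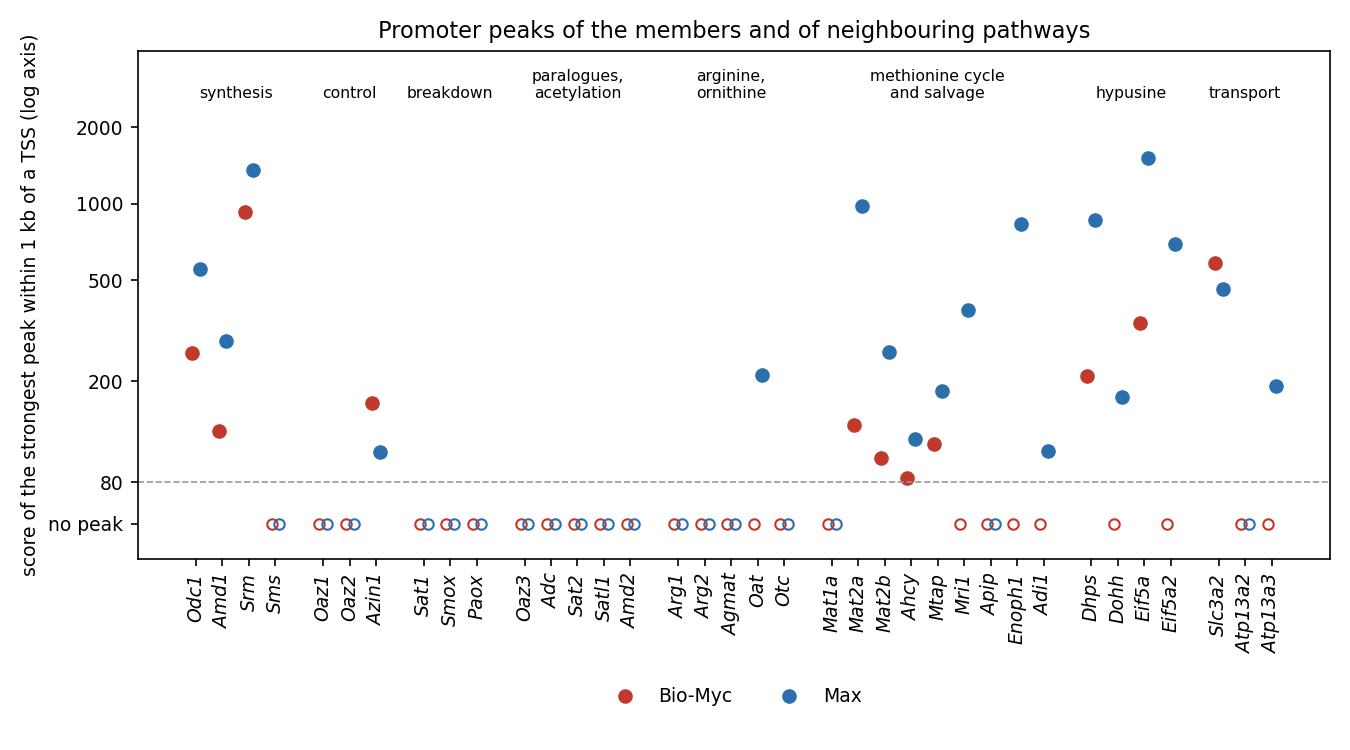
Score (log axis) of the strongest Bio-Myc (red) and Max (blue) peak within 1 kb of a TSS for the 10 polyamine genes and the 26 further genes, grouped by role, with open circles where there was no peak and a dashed line at the lowest score, 80. Filled circles of both colours appear at 3 synthesis genes, Azin1, 4 methionine genes, 2 hypusine genes and Slc3a2, and blue ones alone at 7 genes.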

How the data were processed

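The authors sequenced the ChIP libraries on an Illumina HiScanSQ, kept the unique hits that Bowtie 0.12.7 found in mm9, merged redundant reads and ran MACS 1.4.1 against the mock or IgG ChIP with a p-value limit of 1e-08, and CASAVA 1.8 is named in the submitters' processing notes. The deposited lists give position and a score, which is 10 times the negative log10 of the p-value that MACS gave the peak. They hold no read counts, so depth is unknown, and scores were ranked within a list only, apart from the Max to Bio-Myc ratio. Of 4 samples, 2 have lists.

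TSSs were taken from GENCODE M1, on the same assembly. A peak was assigned to a gene when at least 1 bp of it lay within 1 kb of any TSS. CACGTG was searched in the mm9 sequence, and its distance taken from its nearest base. Coordinates are 1-based. RefSeq promoter sequences (10 entries for 8 of the genes) placed starts at most 61 bp from a GENCODE TSS, with the same calls. Srm and Azin1 had no such entry, so among the genes with peaks this check covers Odc1 and Amd1 only. The 10 genes, the list of 27 and the alternatives were chosen with earlier results of these data known. All 10 genes are named, with every listed gene that has a peak, the promoters that share the spacing of the Odc1 pair, and Mtg1 at the peaks nearest to Paox. Python 3.11.15, numpy 2.4.6, pysam 0.24.0, samtools 1.23.1 and matplotlib 3.10.9 were used, and the overlap, distance and motif steps were tested on simulated data (5 of 5 checks returned the known answers).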

Additional observations from a re-analysis of the deposited data

How the results depend on the processing

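Of 39 values recomputed under an alternative, 33 stayed within 1.5 times the reported one and 6 moved further. The genes with both peaks fell from 4 to 2, Odc1 and Srm, at a p-value limit of 1e-15. The 9 E-Boxes under the Bio-Myc peaks of the polyamine genes became 3 in the central 500 bp of the peaks, 1 in the central 200 bp, and 17 when CATGTG was counted too, on both strands, together with the near match CACGCG, also on both strands. The genes without a peak that had CACGTG near a start fell from 4 to 2 with coding and RefSeq starts only. The Odc1 spacing was found at 4 coding genes under a Bio-Myc peak and at 7 with or without a peak. Requiring the peak to cover a TSS, or a window of 500 bp, left 3 genes in each list by losing Amd1. At a p-value limit of 1e-11, or with as many Max peaks as Bio-Myc peaks, the Max list kept 3 of the genes by losing Azin1. Against all annotated genes the background shares were 10% for Bio-Myc and 23.7% for Max. They were not recomputed for the other windows, TSS rules or p-value limits, so the counts under those settings have no share beside them. With no read counts in the lists, a gene without a peak may have signal below the limit of the peak calling. No paired analysis was possible because each ChIP has 1 library.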
